A study of Mus musculus with 6 samples.

Results

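The semaphorins, ephrins, Slits and netrins, together with their plexin, Eph, Robo and Unc5 receptors, were described in cultured mouse myospheres, which are floating clusters grown from Sca1+ cells of skeletal muscle. Members were taken by gene symbol, from the 8 families that carry these names. The rule found 65 of the 18194 genes measured, on 140 of 35067 probe sets assigned to a single gene. Of the 65, 64 were guidance genes (35 ligands and 29 receptors) and 1 was an antisense RNA, Plxna4os1, whose symbol fits the pattern. Probe sets for 25 of the genes lay on both chips, for 28 on the MOE430A chip alone and for 12 on the MOE430B chip alone.

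The series holds 1 condition, with no control or treated group. Hind leg muscle came from the male Balb/c mouse, and cells with the surface antigen Sca1 were enriched by FACS. The culture ran 4 days in neural stem cell medium (neurocult) with B27, EGF, LIF and bf6f (spelled as in the labels), and the cells were at passage 1. Total RNA prepared from 2000000 cells was hybridised as replicates 1 to 3 to both Affymetrix chips, 6 arrays in all; the design text speaks of 1 sample, so the spread over 3 arrays may be technical, and the age and number of the animals were not given in the sources used here.

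Guidance ligands steer growing axons and migrating cells by binding receptors that rearrange the actin cytoskeleton. Semaphorins act through plexins, with neuropilins as co-receptors for the secreted class 3. Ephrins stay attached to the membrane and signal to Eph receptor tyrosine kinases on the neighbouring cell, and ephrins can also signal back into their own cell. Slits bind Robo receptors and repel, while netrins attract through Dcc and neogenin and repel through Unc5 receptors. Outside the nervous system the same families take part in vessel growth, bone remodelling and contacts between mesenchymal cells.

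A signal was read against a background limit. The limit of an array was the 95th percentile of probe sets for genes of other tissues, such as odorant and taste receptors, and its mean over 3 arrays was 807 signal units on MOE430A and 2903 on MOE430B. A probe set counted as above background if its signal passed the limit in every one of the 3 replicates, and 1 such probe set sufficed for its gene. A gene below the limit was not detectable at this background, which does not show that it was absent. Signals of different probe sets depend on their probes, so genes were not ranked by level.

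Of the 64 guidance genes, 20 (31.2%) were above the limit, against 36.2% of all genes measured. Among ligands the count was 13 of 35 (37.1%) and among receptors 7 of 29 (24.1%). With MOE430A alone it was 9 of 31 ligands and 5 of 22 receptors, against 42.7% of all genes on that chip. By family over both chips, 7 of 20 semaphorins, 3 of 8 ephrins, 2 of 3 Slits and 1 of 4 netrins were above. On the receptor side, 4 of 9 plexins, 2 of 13 Eph receptors, 0 of 3 Robo receptors and 1 of 4 Unc5 receptors were above. A further 3 genes exceeded the limit on 2 of 3 arrays and 7 on 1 of 3, while 34 did so on none. By their best probe set, 19 stayed under 0.25 of the limit on at least 1 array. Over all 18194 genes measured these counts were, in the same order, 1108, 1440, 9062 and 5877. The counts of the families are a description with no test. Among genes with 1 probe set, 22.7% of guidance genes and 22.1% of all genes were above, and among genes with 3 or more it was 35.0% and 59.2%, so the gap to the background differed with the number of probe sets.

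**Figure D1:**
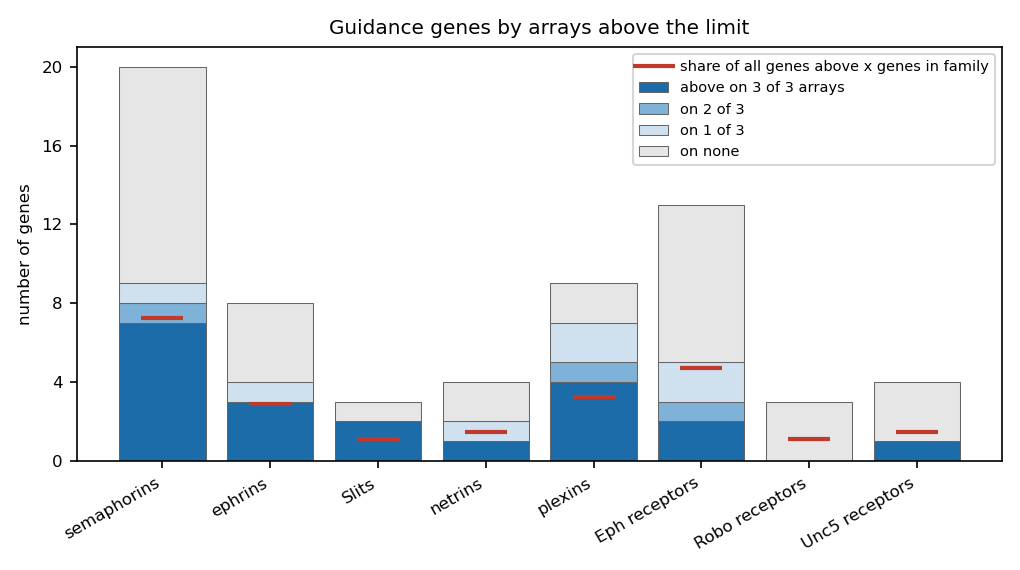
Number of guidance genes (vertical axis) in each of the 8 families, stacked by the largest number of arrays on which any 1 of its probe sets exceeded the background limit. The red line marks the family size multiplied by the 36.2% of all genes that were above; The counts of Slits, plexins and ephrins reach over it, and those of semaphorins, netrins and of Eph, Robo and Unc5 receptors stay under it.

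Promoter sequences are shown for the genes whose best probe set exceeded the limit by more than 10 times on every array: Slit2, Sema4b and Sema4c. The limit differed between the chips, so this cut is not the same on both. Each line gives the 250 bases before the farthest upstream RefSeq start on GRCm38.p6, in the direction of transcription. Capitals mark the GC box GGGCGG on either strand (a binding motif of Sp factors) and TATAAA on either strand. The Slit2 sequence lies at chr5:47982905-47983154 on the plus strand, that of Sema4b at chr7:80186620-80186869 on the plus strand and that of Sema4c at chr1:36558382-36558631 on the minus strand.
Slit2: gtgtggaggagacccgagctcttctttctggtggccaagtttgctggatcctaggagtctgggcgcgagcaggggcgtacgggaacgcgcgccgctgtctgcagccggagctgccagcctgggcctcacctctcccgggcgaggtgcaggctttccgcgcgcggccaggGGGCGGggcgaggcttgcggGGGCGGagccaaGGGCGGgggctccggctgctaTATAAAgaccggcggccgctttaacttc
Sema4b: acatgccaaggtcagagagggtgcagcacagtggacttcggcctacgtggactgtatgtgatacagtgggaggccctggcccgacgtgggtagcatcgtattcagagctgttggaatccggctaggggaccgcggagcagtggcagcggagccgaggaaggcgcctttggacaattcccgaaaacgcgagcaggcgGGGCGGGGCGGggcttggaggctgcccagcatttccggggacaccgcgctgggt
Sema4c: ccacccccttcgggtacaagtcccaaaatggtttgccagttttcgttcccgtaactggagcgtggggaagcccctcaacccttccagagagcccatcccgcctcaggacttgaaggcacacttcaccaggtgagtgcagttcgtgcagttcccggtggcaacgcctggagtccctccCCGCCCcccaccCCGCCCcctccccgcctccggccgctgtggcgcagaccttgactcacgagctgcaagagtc
The Slit2 window held 3 GC boxes and 1 TATAAA, and the windows of Sema4b and Sema4c held 2 GC boxes each and no TATAAA. The window of 55 of the 64 guidance genes was matched, and 41 of them (74.5%) held a GC box. The share was 49.9% of the matched promoters of measured genes and 33.0% of all 27025 promoters of that length. For guidance genes above the limit it was 15 of 18 (83.3%), beside 61.9% of all measured genes above. For those not above it was 26 of 37 (70.3%), beside 42.8% of all measured genes not above. TATAAA was found in 2 guidance promoters (3.64%), both of genes above the limit, beside 9.02% for measured genes and 13.0% for all promoters. Since a promoter was matched for 14453 of the 18194 measured genes (79.4%, under the 80% such a check needs), the check against measured genes is void and its shares are given as values. Guidance promoters had a median GC content of 64.8%, those of measured genes 57.6% and all promoters 52%, so the motif counts were set beside sequences of another base composition. These are matches of letters and not measured binding sites.

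Slit2 and Slit3 were above background on every array, and Slit1 on none. Slit2, a secreted repellent, gave signals of 17060, 13697 and 16595 in replicates 1, 2 and 3 on MOE430A, 15784 ± 1823 (SD, n = 3), and lay between 17.5 and 20.9 times over the limit. Slit3, a second secreted Slit, gave 4096, 4003 and 3759, or 4.58 to 5.11 times the limit. Slit1, the member best known from brain, gave 124, 131 and 205 and did not reach the limit on any array.

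The receptors of the Slits were not detected above background. Robo1 gave 599, 276 and 313, at most 0.732 of the limit. Robo2 gave 599, 576 and 496 on MOE430B, and Robo3 gave 398, 504 and 337 on MOE430A. No Robo member exceeded its limit on any array. Robo4, an endothelial relative that is no member of this set, gave 1026, 899 and 869 and lay at 1.06 to 1.25 times the limit. Of 14 measured genes listed as Robo and Slit effectors, 8 were above: Cdc42, Dag1, Enah, Gpc1, Myo9b, Srgap2, Srgap3 and Vasp. That is 57.1%, beside 36.2% of all genes and 59.2% of all genes with 3 or more probe sets. Srgap2 and Srgap3, GTPase-activating proteins that bind Robo tails, lay at 1.34 to 2.43 and 1.34 to 2.07 times the limit. Gpc1, a heparan sulfate proteoglycan that binds Slit2, lay at 3.98 to 4.53 times, and Dag1, dystroglycan, which also binds Slits, at 6.07 to 8.16 times.

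Of the class 4 semaphorins, which are membrane proteins, 3 of 6 were above the limit. Sema4c gave 54579, 44727 and 43346 on its single MOE430B probe set, 47551 ± 6126 (SD, n = 3), at 15.3 to 17.1 times the limit. Sema4b gave 11770, 8352 and 8657 on MOE430A, at 10.5 to 14.4 times. All 3 arrays were high for both genes. Sema4d, a ligand of Plxnb1 known from immune cells and osteoclasts, gave 1463, 1708 and 1694, or 1.79 to 2.18 times. Sema4g, with 687, 826 and 708, crossed the limit in replicate 2 only.

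Sema7a, a GPI-anchored semaphorin that binds Plxnc1 and integrins, gave 7335, 8890 and 8978, at 8.97 to 11.4 times the limit. Its receptor Plxnc1 was not above by any of 6 probe sets, and the best of them stayed at 0.392 to 0.456 of the limit. By these best probe sets the ligand was above the limit and the receptor below it on every array. The other Sema7a probe set stayed at 0.0255 to 0.0472 of the limit.

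Among class 3 semaphorins, the secreted class, 2 of 7 were above. Sema3a, a repellent of axons through Nrp1 and class A plexins, gave 2724, 2711 and 3422, at 3.33 to 4.17 times the limit. Sema3c, which acts in heart outflow tract development, gave 5935, 5711 and 5845 on MOE430B, at 1.83 to 2.30 times. The replicates of Sema3c were close to each other, with a coefficient of variation of 1.94%. Sema3b was far under the limit, at 0.0556 to 0.0598 of it.

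Of the transmembrane class 6 genes, 1 of 4 was above. Sema6d gave 14881, 10521 and 15193 on MOE430B, at 3.59 to 5.98 times the limit. Sema6c gave 1906, 448 and 1162, so replicate 2 lay under the limit and the other two over it. Neither of the 2 class 5 genes was above.

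**Figure D2:**
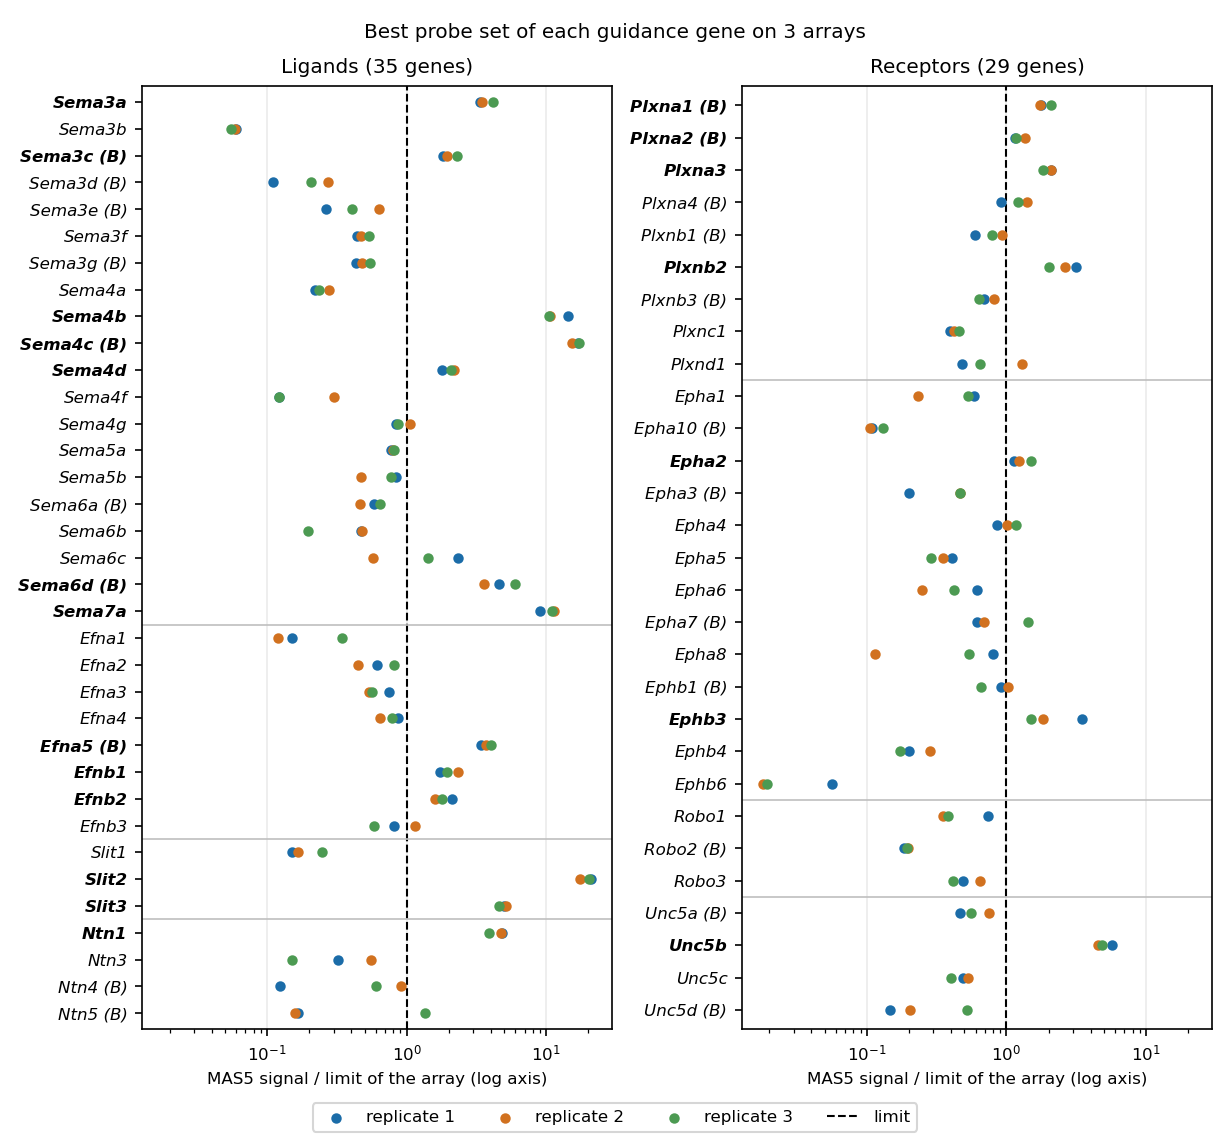
Signal of the best probe set of each of the 64 guidance genes divided by the background limit of its array (log axis), 1 point for each of 3 replicates, with genes on MOE430B marked (B) and genes above the limit in bold. Slit2, Sema4b and Sema4c lie beyond 10 times the limit on all arrays, and no Robo point reaches it.

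Plexins, the semaphorin receptors, had 3 of 4 class A genes above the limit. Plxna1 gave 5715, 5057 and 5264 on MOE430B, at 1.73 to 2.07 times. Plxna3 gave 1718, 1632 and 1512 on MOE430A, at 1.84 to 2.10 times. Plxna2 gave 3718, 4004 and 2961 on MOE430B, at 1.15 to 1.37 times. The remaining class A gene, Plxna4, gave 2944, 4099 and 3054 on MOE430B, under the limit in replicate 1 (0.909 of it) and over it in the others.

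Plxnb2, a receptor for class 4 semaphorins including Sema4c, was the class B plexin above the limit, of 3. Its signals were 2558, 2062 and 1642, at 2.00 to 3.13 times. Plxnb1, the receptor of Sema4d, gave 1918, 2737 and 2015 on its best MOE430B probe set, under the limit on each array, while its other probe set crossed the limit in replicate 1 alone. Plxnd1, known from blood vessels, gave 391, 1003 and 527 and crossed it in replicate 2 alone.

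The co-receptors of class 3 semaphorins were present beside the plexins. Nrp2 gave 4980, 5240 and 5002, at 6.09 to 6.69 times the limit, and Nrp1 gave 2690, 3350 and 3552, at 3.29 to 4.33 times. Both neuropilins were above on every array. Altogether 5 of 10 listed co-receptors were above, the others being Kdr, L1cam and Met. Of 21 listed plexin effectors 10 were above: Arhgef11, Arhgef12, Dpysl2, Dpysl3, Farp1, Fyn, Mical2, Rac1, Rhoa and Rras. The shares of co-receptors and effectors were 50% and 47.6%. Over all genes 36.2% were above. Most genes of both lists were measured by fewer than 3 probe sets. Among all genes the share was 22.1% where a gene had 1 probe set and 42.3% where it had 2. It was 59.2% for genes measured by 3 or more. Rac1 and Rhoa, small GTPases of the actin cytoskeleton that nearly all cells use, lay at 23.2 to 27.6 and 18.1 to 20.5 times the limit. Dpysl2, a collapsin response mediator, lay at 17.9 to 24.6 times on MOE430B.

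Ephrins B, which cross the membrane, had 2 of 3 genes above the limit. Efnb1, whose loss disturbs skull and skeletal patterning, gave 1421, 1815 and 1584, at 1.74 to 2.32 times. Efnb2, a marker of arterial endothelium, gave 1723, 1259 and 1477, at 1.61 to 2.11 times, and a second Efnb2 probe set gave 1549, 964 and 1494. All of these were over the limit on every array. Of the probe sets, 1 of 3 for Efnb1 and 2 of 4 for Efnb2 were above. The lower Efnb2 probe sets gave 43.1 ± 14.2 and 215 ± 151 (SD, n = 3), under the limit on each array. Efnb3 gave 663, 903 and 483 and crossed it in replicate 2 alone. Of the GPI-anchored ephrins A, 1 of 5 was above: Efna5 gave 11079, 10812 and 10238 on MOE430B, at 3.42 to 4.03 times.

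Of the Eph receptors, 1 of 9 EphA and 1 of 4 EphB genes were above. Ephb3 gave 2838, 1425 and 1235, at 1.5 to 3.47 times the limit, and its replicates spread widely (coefficient of variation 47.8%). Epha2 gave 926, 962 and 1232, at 1.13 to 1.5 times, over the limit on each array by a small margin. Epha4, which binds ephrins of both classes, gave 699, 786 and 966, and lay under the limit in replicate 1 at 0.855 of it. Ephb6, a receptor without kinase activity, gave 45.9, 14.2 and 15.7 on its single probe set, far under the limit on every array. Of 22 listed Eph and ephrin effectors 14 were above: Abl1, Adam10, Crk, Inppl1, Itsn1, Pdzrn3, Ptpn11, Rasa1, Rgs3, Sdcbp, Src, Tiam1, Vav2 and Vav3. This was 63.6%, against 36.2% of all genes and 59.2% of all genes with 3 or more probe sets. Adam10, the protease that cleaves ephrins from the membrane, lay at 5.88 to 6.83 times.

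Ntn1, netrin 1, was the single netrin above the limit of 4, with 3920, 3731 and 3216, at 3.92 to 4.79 times. Ntn5 gave 540.0, 464 and 3452 on MOE430B, over the limit in replicate 3 alone. Ntn4, a netrin of basement membranes, gave 403, 2671 and 1528 on MOE430B and stayed under the limit.

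Unc5b, a netrin receptor also found in vessel sprouts, was the Unc5 gene above the limit, with 4667, 3525 and 3983, at 4.50 to 5.70 times. Unc5c gave 398, 412 and 328 on MOE430A, and no array exceeded the limit. Unc5a gave 1511, 2180 and 1410 on MOE430B, also under it. Of 13 measured genes listed as netrin receptors and effectors 8 were above: Ablim1, Dock1, Flrt2, Neo1, Pitpna, Rgmb, Siah1a and Trio. That is 61.5%, beside 36.2% of all genes and 59.2% of all genes with 3 or more probe sets. Neo1, neogenin, gave 24287, 22207 and 13305 on MOE430B, at 5.23 to 7.58 times. Flrt2, a ligand of Unc5 receptors, gave 67352, 56445 and 61110 there, at 19.3 to 24.0 times. Dcc, the other attractive netrin receptor, gave 1015, 644 and 394 and was over the limit in replicate 1 alone. Over all partner genes, 45 of 80 measured (56.2%) were above. The list holds many widely used signalling genes and many genes with several probe sets. With 1 probe set 5 of 18 partner genes were above (27.8%, against 22.1% of all genes), with 2 it was 12 of 22 (54.5%, against 42.3%) and with 3 or more 28 of 40 (70.0%, against 59.2%).

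The calls depended on which probe set was read. Of 9 guidance genes above the limit on MOE430A with 2 or more probe sets there, 0 had every probe set above, against 26.5% of all such genes. On MOE430B it was 0 of 2, against 10.4%. Sema7a gave 8401 ± 924 on one probe set and 31.9 ± 9.52 on its other (SD, n = 3). Sema4b gave 9593 ± 1892 and 57.5 ± 21.3 in the same way. For Slit2, 1 of 3 probe sets was above, and the lower probe set on MOE430A gave 276 ± 195. For Efna5 the probe set on MOE430A gave 44.6, 133 and 117, all far under the limit. Sema3a and Sema4d each had 1 of 3 probe sets above, and Sema6d and Plxna2 each 1 of 4. It was 1 of 2 for each of Ntn1, Unc5b, Plxna1, Plxna3 and Sema3c.

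**Figure D3:**
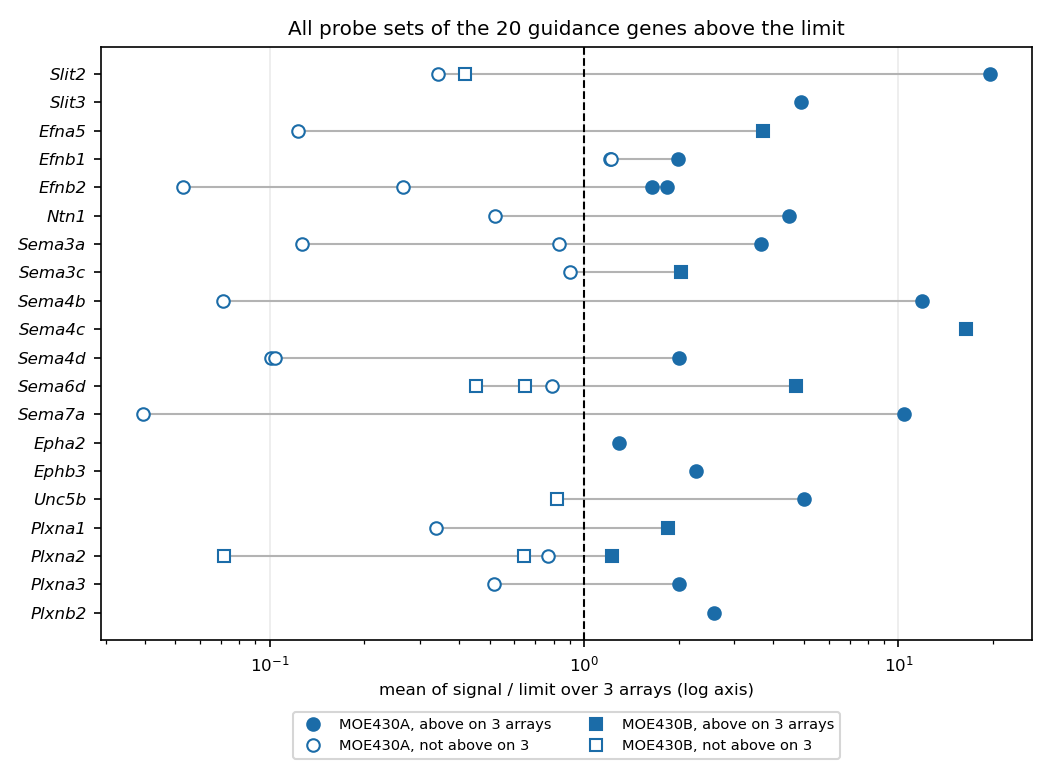
Mean of signal over limit across 3 arrays (log axis) for each probe set of the 20 guidance genes above the limit, with circles for MOE430A, squares for MOE430B, and filled symbols for probe sets above on all 3 arrays. Sema7a and Sema4b each have one probe set past 10 times the limit and another under 0.1 of it.

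On these arrays the 3′ probe sets of the control transcripts were brighter than the 5′ ones, with a 3′ to 5′ ratio of 13.8 ± 2.45 for Gapdh and 10.4 ± 1.62 for Actb on MOE430A (SD, n = 3). On MOE430B the ratios were 15.4 ± 1.40 and 11.1 ± 2.05. Their part in the difference between probe sets of a gene was not tested. Among all genes the share above rose with the number of probe sets, from 22.1% with 1 to 59.2% with 3 or more. Among guidance genes it was 22.7% with 1 and 35.0% with 3 or more, with no rise from 2 to 3 or more. With 1 probe set, 5 of 22 guidance genes were above, with 2 it was 8 of 22 (36.4%, against 42.3% of all genes) and with 3 or more 7 of 20. Counted by probe set, 15 of 90 (16.7%) were above on MOE430A, against 35.6% of all, and 6 of 49 (12.2%) on MOE430B, against 13.6%.

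The spread between replicates was set beside that of all probe sets above the limit. On MOE430A the 15 guidance probe sets above the limit had a median coefficient of variation of 13.8%, against 13.0% for all probe sets above. On MOE430B the 6 had 9.59%, against 15.6%. Replicates on MOE430A correlated at 0.916 to 0.922 across probe sets, and those on MOE430B at 0.749 to 0.773, as a description over probe sets that share arrays. Replicate 1 on MOE430B came from another chip lot than replicates 2 and 3, and its part in the values there was not tested. The limma test for differences between replicates, on genes with probe sets over the mean limit on both chips, called 7 of 623 genes (1.12%) at an adjusted p under 0.05, and 0 guidance genes could enter it. It called 0 genes after array median centring and after quantile normalization, so these calls do not hold under another scaling. It also called 0 with no intensity trend, without probe sets of shared sequence and without replicate 2. The calls were 7 without replicate 1 and 4 without replicate 3. Without the filter on low signals, 25 guidance genes entered and 0 were called, with 0 at an unadjusted p under 0.05, among 3811 genes of which 0 were called and 92 had such a p.

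Markers of the cells in the culture were read in the same way. The 6 of 6 fibro-adipogenic markers (Col1a2, Col3a1, Dcn, Fbln1, Lum and Pdgfra) were above the limit. Of endothelial markers 2 of 6 were above (Cldn5 and Kdr), of macrophage markers 2 of 5 (Adgre1 and Csf1r), of Schwann markers 1 of 3 (Sox10), of neural markers 0 of 6 and of myogenic markers 0 of 5. The endothelial, macrophage and Schwann shares (33.3%, 40% and 33.3%) lay near the 36.2% of all genes above. Cdh5, Emcn, Pecam1, Tek, Cd68, Ptprc, Tyrobp, Mbp and S100b were not above. Of the myogenic markers, Myod1 and Myog were over the limit on 2 of 3 arrays. The best probe sets of the neural markers had lowest-array ratios to the limit of 0.0171 to 0.780, those of the myogenic markers 0.0481 to 0.892 and those of the fibro-adipogenic markers 1.44 to 171.7. The gene of Sca1 itself was not analysed here. On these bulk arrays, which cell type gave a guidance transcript was not tested, and fewer cells of a type cannot be told apart from less RNA per cell.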

How the data were processed

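Biotin-labelled total RNA of Sca1+ myospheres was measured on 6 arrays, replicates 1 to 3 on each of 2 chips, which form 1 group. The deposited values are intensity (signal) values made by the authors with MAS5, per the submitters' processing notes; every array had a 2% trimmed mean near 1500 (1500.19 to 1500.76), and they were used as deposited. Probe sets were named from the platform annotation, with symbols updated through Entrez IDs to RefSeq GRCm38.p6 (20364 of 20393 single-gene probe sets matched on MOE430A and 14499 of 14674 on MOE430B). The background limit was the 95th percentile of 153 reference probe sets on MOE430A and 44 on MOE430B. On MOE430B its mean was higher, so ratios to the limit are not comparable between chips. The F-test between replicates used limma 3.58.1 (R 4.3.3) on log2 signals with the chip as covariate and Benjamini-Hochberg adjustment, tested on simulated data; other steps used Python 3.11.15. The members, partner genes and marker lists were chosen with earlier results of these data known. Named genes are all members above the limit, those above on 2 of 3 arrays, the nearest member of a family with neither, and partner genes above the limit; the remaining members, named as examples, were chosen after their values were seen. Alternatives varied the limit, reference, probe sets, chips, normalization and replicates. Arrays give no counting error; their number limits the precision.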

Additional observations from a re-analysis of the deposited data

How the results depend on the processing

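The main count of 20 guidance genes above the limit, against 36.2% of all genes, was compared with 12 alternatives. Taking the array median as the limit gave 32 genes (14 receptors), against 53.8% of all genes. Taking the median over the probe sets of a gene gave 12 genes (7 ligands), against 24.8% of all genes, and Slit2, Sema3a, Sema4d, Sema6d, Efnb1, Efnb2, Plxna1 and Plxna2 were then not above. Leaving out 1 replicate gave 20 to 22 genes, with Epha4 and Plxna4 added without replicate 1 and Sema6c added without replicate 2. By the rule of the call, leaving out a replicate can only keep or add genes. The same holds for asking 2 of 3 arrays and for the lower limits, the 90th percentile and the array median. These alternatives could not remove a call. The other alternatives gave 14 to 23 genes. The lowest, 14 of 53 (26.4%, against 42.7% of all genes), used MOE430A alone, where Efna5, Plxna1, Plxna2, Sema3c and Sema6d were not above and Sema4c had no probe set. Efnb1 and Epha2 rested on probe sets whose names mark probes shared by several transcripts, of the same gene or another. Above under every alternative in which they had a value were 9 genes: Ephb3, Ntn1, Plxna3, Plxnb2, Sema4b, Sema4c, Sema7a, Slit3 and Unc5b. The median over probe sets hardly tested these 9. Ephb3, Plxnb2, Sema4c and Slit3 have 1 probe set, so it could not change them. The other genes have 2, so it was the mean of both, and 1 high probe set could carry it. Slit2, with 3 probe sets, fell to 0.270 of the limit. Signal over background limits all calls.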

Other observations

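The antisense RNA Plxna4os1, the member that is no guidance gene, gave signals of 867, 443 and 1318 on MOE430B and stayed under the limit on all 3 arrays.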
